A study of Mus musculus with 20 samples.

Results

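The genes described here encode the parts of the extracellular matrix of muscle that are not collagen chains, together with the enzymes that crosslink and cut the matrix. They were chosen by name: 43 mouse symbols were matched through Ensembl identifiers to rows of a raw count table, and all 43 were found among its 56941 gene rows. All 43 also passed the filter on low counts, which left 16778 genes for testing. The members were set into 7 groups by role: small leucine-rich proteoglycans, large and heparan sulfate proteoglycans, adhesive and matricellular glycoproteins, crosslinking enzymes with the collagen chaperone, elastic fibre genes, proteases with their inhibitors, and laminins with nidogens.

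The RNA came from whole soleus muscle of C57BL/6J mice, 1 hind limb per mouse, with 10 libraries in each of 2 groups. The exposed group, labelled space, had Hind-limb unloading for 14 days, Ionizing radiation and Stress hormone, the last described in the series design as stress through the diet. The control group had sham-irradiation and was otherwise kept under similar conditions. The 3 exposures were given together to every exposed mouse, so their effects cannot be told apart. Doses, ages and sexes are not in the labels used here. Because whole muscle was sampled, fewer cells of a type and less RNA per cell cannot be told apart.

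The matrix of muscle has layers. Each fibre is wrapped in a basement membrane, in which laminins form a sheet that nidogens and the proteoglycan perlecan tie to collagen IV and that receptors on the fibre hold. Outside it, fibroblasts lay down fibrillar collagen, whose fibril width is governed by small leucine-rich proteoglycans such as decorin and biglycan, and elastic fibres, in which elastin is deposited on a scaffold of fibrillin. Lysyl oxidases crosslink collagen and elastin outside the cell, metalloproteases cut the matrix, and tissue inhibitors of metalloproteases (TIMPs) restrain them. This network carries force sideways from fibre to fibre and on to tendon.

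Libraries held between 17336017 and 43424464 counts. Levels are given as CPM, counts per 1000000 counts of the library after scaling, and differences as the log2 fold change of exposed against control (log2 change, with the SE over libraries) from edgeR's quasi-likelihood test, with p-values adjusted over all tested genes and a threshold of 0.05. The tissue label was borne out by muscle fibre genes: Ttn stood at 191420 and 196223 CPM in control and exposed muscle and the slow myosin Myh7 at 10184 and 4650 CPM. Exposed replicates 1 to 4 stood apart, with a summed level of 12 Schwann cell and myelin markers of 537 to 1549 CPM against 99.5 to 201.2 CPM in the other 16 libraries. Members whose call changes when they are dropped are given both ways, a choice made with the values in view. Control replicate 6 stood apart in the members themselves. It was the highest control library for 29 of the 43, and held 598 CPM of 11 summed tendon markers against 257 to 378 CPM in the other controls. The part of these marker levels in the results was not tested.

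Most of these matrix genes were lower in the exposed muscles. Of the 43 members, 23 fell, 7 rose and 13 did not pass the test. Over all tested genes 57.6% were called, 28.9% lower and 28.7% higher, so the members' share of lower calls, 53.5%, stood above the share over all genes and their share of higher calls, 16.3%, below it. The median log2 fold change was -0.36 over the members and 0.02 over all tested genes. With library size alone as scaling, 9 members were higher and 19 lower. The share of higher calls went from 49.8% to 61.3% among all called genes and from 23.3% to 32.1% among called members. With upper-quartile factors these shares were 58.8% and 29.0%. Without exposed replicates 1 to 4, 28 members fell and 6 rose, and over all tested genes 4466 fell and 4310 rose. Higher calls then made up 17.6% of called members and 49.1% of all called genes.

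The groups did not overlap in 14 members, 13 of them lower and 1 higher in exposed muscles. Over all tested genes 17.4% did not overlap, 11% lower and 6.48% higher. Falls of at least 2-fold were found in 5 members (3.37% of all tested genes): Postn, Timp1, Mfap4, Bgn and Fn1. No member rose 2-fold (3.82% of all tested genes). Roles differed in their counts. Of the 6 adhesive glycoproteins and of the 6 crosslinking genes, 5 each fell and none rose. Of the 6 proteases and inhibitors 3 rose and 1 fell, and of the 8 laminins and nidogens 2 rose and 2 fell. These small counts are descriptions, and no difference between roles was tested.

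**Figure D1:**
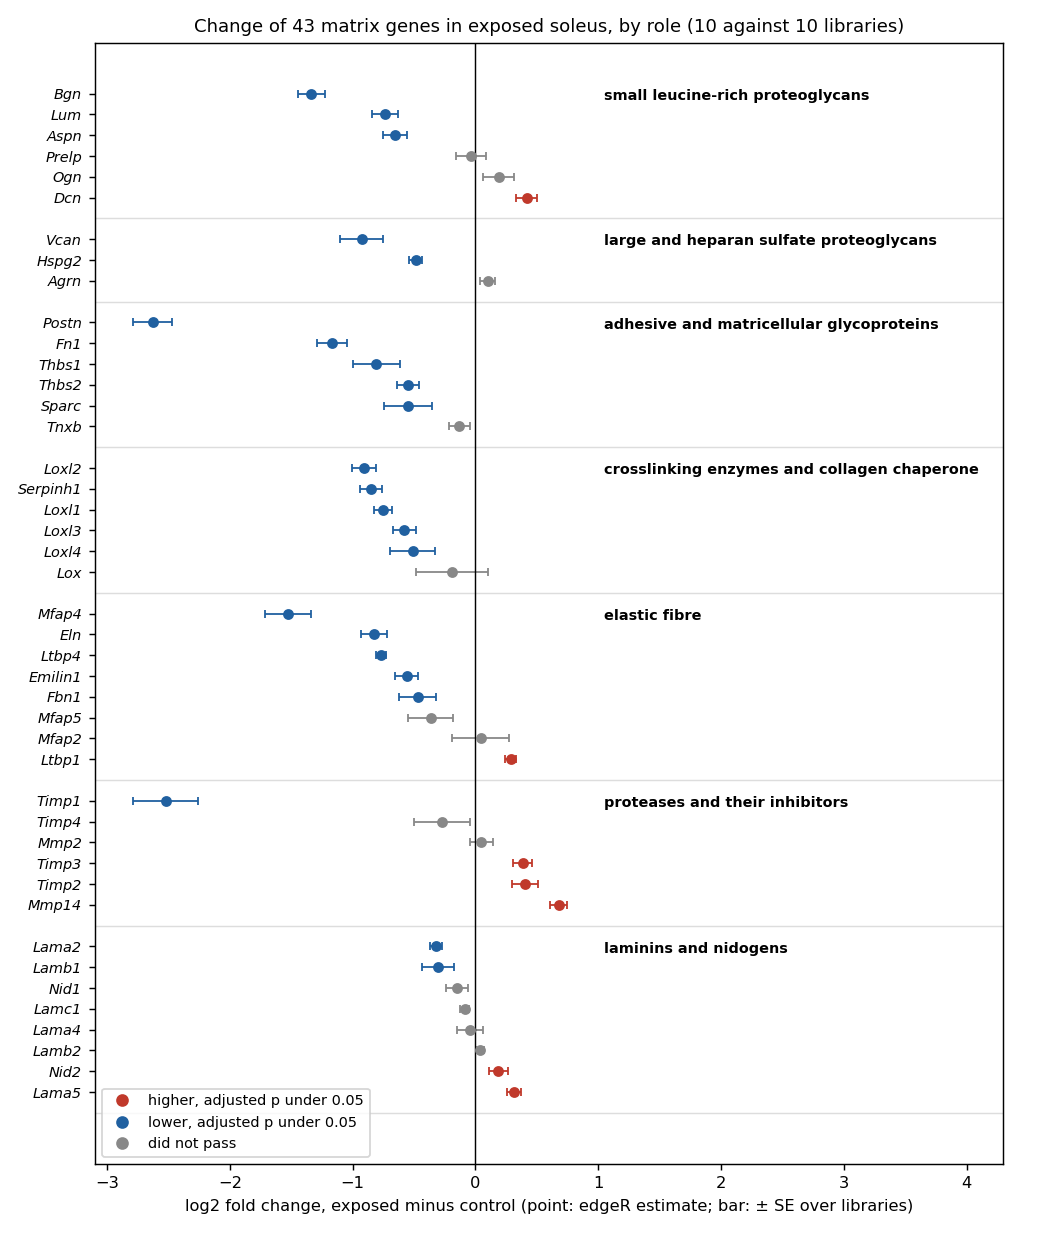
Log2 fold change of exposed against control for the 43 members, grouped by role (points, edgeR estimates; bars, SE over libraries; blue, lower; red, higher; grey, did not pass the test). Most points lie left of 0, from -2.63 for Postn to 0.68 for Mmp14, and the laminins and nidogens lie within -0.32 and 0.32.

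Upstream sequences are shown for 3 members: Postn, which fell most, Mmp14, which rose most, and Serpinh1, as one of the collagen-handling genes that fell. Each is the 250 bases before an annotated start site, from the RefSeq promoter table on GRCm38.p6, printed 5′ to 3′ on the gene's strand. That build is older than the GRCm39 named for the counts. For Postn (chr3:54360857-54361106, plus strand) the nearer of 2 annotated starts to the coding region is shown; Serpinh1 lies at chr7:99353240-99353489 on the minus strand and Mmp14 at chr14:54431348-54431597 on the plus strand. Capitals mark matches, on either strand, to any of 8 motifs searched.
Postn: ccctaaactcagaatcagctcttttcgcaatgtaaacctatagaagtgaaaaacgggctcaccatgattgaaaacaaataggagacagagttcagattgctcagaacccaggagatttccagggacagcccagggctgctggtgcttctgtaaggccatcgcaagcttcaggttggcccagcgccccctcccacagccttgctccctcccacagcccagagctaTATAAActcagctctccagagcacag
Serpinh1: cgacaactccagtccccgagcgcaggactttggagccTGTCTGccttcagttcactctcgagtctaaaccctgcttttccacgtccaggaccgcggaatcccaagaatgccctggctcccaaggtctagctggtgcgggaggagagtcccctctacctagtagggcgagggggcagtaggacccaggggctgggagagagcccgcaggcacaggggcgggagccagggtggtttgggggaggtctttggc
Mmp14: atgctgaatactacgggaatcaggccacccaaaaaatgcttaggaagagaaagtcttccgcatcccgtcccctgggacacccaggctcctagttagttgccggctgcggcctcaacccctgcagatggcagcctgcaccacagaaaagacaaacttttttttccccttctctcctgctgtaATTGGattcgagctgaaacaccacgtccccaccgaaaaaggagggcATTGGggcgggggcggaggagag

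The window of Postn held a TATA box (TATAAA), that of Serpinh1 a SMAD-type match (CAGACA) and that of Mmp14 2 CCAAT boxes (CCAAT). The window of the other Postn start (chr3:54359017-54359266), and that of Bgn (chrX:73483351-73483600), held no match to any of the 8 motifs and are not printed. A table entry was found for 28 of the 43 members, with 34 windows. TATAAA was in 4 of these 34 windows (11.8%) and in 12.4% of the 32851 windows of all genes. CCAAT was in 12 (35.3%, against 33.8%) and CAGACA in 7 (20.6%, against 17.1%). The other motifs were found in at most 4 member windows: the TEAD motif GGAATG in 4 (11.8%, against 12.6%), the heat shock motif GAANNTTC in 2 (5.88%, against 6.69%), the AP-1 motif TGANTCA in 1 (2.94%, against 6.75%), the CArG box in 1 (2.94%, against 1.47%) and the palindromic glucocorticoid response element in 0 (against 0.387%). No motif searched contains another, and a window may hold several. These matches are descriptions of letters in a window.

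Of the 6 adhesive and matricellular glycoproteins 5 fell, Postn by the most of any member. Periostin, Postn, a matricellular protein that binds collagen and fibronectin in loaded connective tissue, ran from 38.7 to 78.5 CPM in controls (median 47.2) and from 5.38 to 11.2 CPM in exposed muscles (median 7.80). The highest exposed library thus lay far below the lowest control. The fall was 6.18-fold (log2 change -2.63 ± 0.16 SE, edgeR adjusted p = 4.65e-11).

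Fibronectin, Fn1, the adhesive protein on which other matrix proteins assemble, ran from 162.4 to 299.6 CPM in controls (median 208.4) and from 68.4 to 131.7 CPM in exposed muscles (median 92.5), again with no overlap. It fell 2.25-fold (log2 change -1.17 ± 0.12 SE, edgeR adjusted p = 5.35e-08). The thrombospondins, which bind latent TGF-beta and cell receptors, fell less and with overlapping ranges. Thbs1 went from a control median of 65.4 (49.6 to 146.3) to 43.6 (34.5 to 63.0) CPM, a 1.75-fold fall (log2 change -0.81 ± 0.19 SE, edgeR adjusted p = 0.00165). Thbs2 went from 48.9 (41.1 to 64.2) to 33.3 (26.6 to 42.9) CPM, a 1.46-fold fall (log2 change -0.55 ± 0.088 SE, edgeR adjusted p = 5.95e-06).

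Sparc, a collagen-binding glycoprotein, fell 1.46-fold with a wide spread (log2 change -0.55 ± 0.19 SE, edgeR adjusted p = 0.0218). Exposed replicates 1 and 4 held 211.0 and 233.9 CPM, within the control range of 142.0 to 292.1, and the other 8 held 84.4 to 137.2. The log2 fold change was -0.94 without exposed replicates 1 to 4, and with library size alone the fall did not pass (edgeR adjusted p = 0.0979). Tenascin-X, Tnxb, which spaces collagen fibrils, is among the 3 most abundant members in CPM. It ran from 184.4 to 255.5 CPM in controls (median 219.5) and from 170.3 to 296.1 in exposed muscles (median 184.7), and did not pass the test (log2 change -0.13 ± 0.085 SE, edgeR adjusted p = 0.174). Its highest exposed value was replicate 1. Without that library the log2 fold change was -0.21 and passed (edgeR adjusted p = 0.00214), as it did without exposed replicates 1 to 4 (edgeR adjusted p = 0.00351). The libraries dropped were picked with these values in view, so both fits are descriptions.

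**Figure D2:**
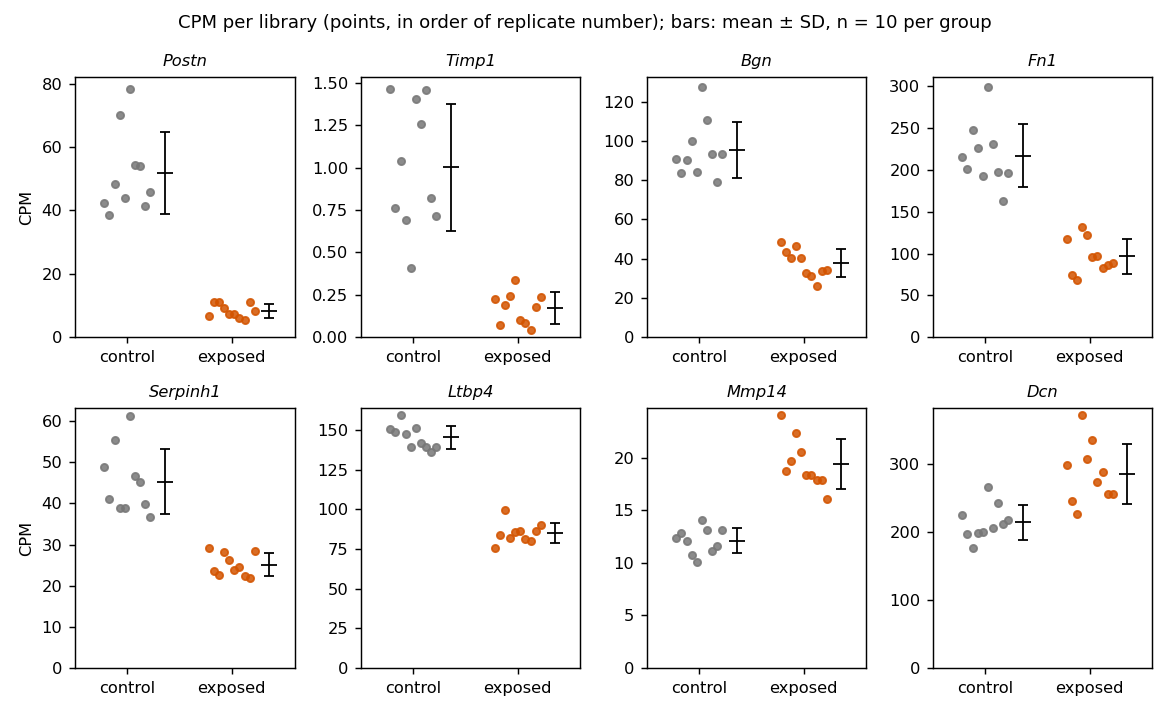
CPM of 8 members in each library (grey points, control; orange points, exposed; bars, mean ± SD, n = 10 per group; each axis starts at 0). In Postn, Timp1, Bgn, Fn1, Serpinh1 and Ltbp4 every exposed library lies below every control, in Mmp14 every exposed library lies above, and in Dcn the ranges overlap.

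The small leucine-rich proteoglycans, which coat collagen fibrils and set their width, moved in opposite directions. Biglycan, Bgn, ran from 79.0 to 127.4 CPM in controls (median 92.1) and from 26.1 to 48.6 CPM in exposed muscles (median 37.2). It fell 2.53-fold with no overlap (log2 change -1.34 ± 0.11 SE, edgeR adjusted p = 8.85e-10). Decorin, Dcn, its closest relative and the most abundant member in exposed muscles per length, rose. Controls lay between 177.2 and 266.3 CPM (median 209.0) and exposed muscles between 226.6 and 373.1 CPM (median 281.1), a 1.33-fold rise with overlapping ranges (log2 change 0.42 ± 0.087 SE, edgeR adjusted p = 0.000136).

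Lumican, Lum, fell 1.67-fold, from a control median of 18.8 CPM (15.7 to 26.2) to 10.8 CPM (9.66 to 16.3), with 1 exposed library inside the control range (log2 change -0.74 ± 0.10 SE, edgeR adjusted p = 1.33e-06). Asporin, Aspn, fell 1.58-fold with no overlap, from 47.6 CPM (41.3 to 68.2) to 34.0 CPM (27.9 to 37.7; log2 change -0.66 ± 0.095 SE, edgeR adjusted p = 1.91e-06). Ogn (osteoglycin) and Prelp did not pass the test, with log2 fold changes of 0.19 ± 0.13 and -0.04 ± 0.12 SE. Exposed replicate 4 held the highest level of Ogn, 88.5 CPM, against 39.8 to 65.5 in the other 9, and the log2 change of Ogn was 0.064 without exposed replicates 1 to 4.

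Neighbouring proteoglycan genes moved alike in some pairs and apart in others. In the GENCODE annotation of GRCm38, Dcn and Lum are adjacent on chromosome 10 and Kera, which encodes keratocan, follows. Dcn rose 1.33-fold, Lum fell 1.67-fold and Kera fell 6.15-fold (edgeR adjusted p = 4.71e-07). On chromosome 13, Ecm2, Aspn, Omd and Ogn lie side by side. Aspn fell there, Omd, which encodes osteomodulin, rose 1.39-fold (edgeR adjusted p = 0.0124), Ogn did not pass, and Ecm2 fell 1.16-fold (edgeR adjusted p = 0.00176).

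Of the larger proteoglycans, perlecan and versican fell. Perlecan, Hspg2, the heparan sulfate proteoglycan of basement membranes, was the member with the most counts. It ran from 411.6 to 573.6 CPM in controls (median 480.5) and from 317.1 to 365.9 CPM in exposed muscles (median 344.8), a 1.40-fold fall with no overlap and a narrow spread among exposed libraries (log2 change -0.49 ± 0.051 SE, edgeR adjusted p = 2.46e-08). Versican, Vcan, a large chondroitin sulfate proteoglycan of loose matrix, fell 1.90-fold, from a control median of 22.9 CPM (18.7 to 39.9) to 11.4 CPM (9.16 to 25.3; log2 change -0.93 ± 0.17 SE, edgeR adjusted p = 0.000179). The ranges overlapped only through exposed replicate 1, at 25.3 CPM. Agrin, Agrn, which clusters acetylcholine receptors at the nerve-muscle junction, stood at a median of 24.1 CPM (21.1 to 26.9) in controls and 25.7 CPM (21.1 to 28.6) in exposed muscles. It did not pass (log2 change 0.10 ± 0.059 SE, edgeR adjusted p = 0.139). With upper-quartile factors (edgeR adjusted p = 0.0211), library size alone (0.0364), or without exposed replicate 8 (0.0457) it passed as higher. Without exposed replicates 1 to 4 its log2 change was 0.052 (edgeR adjusted p = 0.516).

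Of the 6 genes for collagen folding and crosslinking, 5 fell and Lox did not pass. Serpinh1, the collagen-specific chaperone also called HSP47, ran from 36.8 to 61.3 CPM in controls (median 43.2) and from 21.8 to 29.1 CPM in exposed muscles (median 24.2). That was a 1.81-fold fall with no overlap (log2 change -0.85 ± 0.091 SE, edgeR adjusted p = 2.21e-08). The lysyl oxidase-like enzymes Loxl1, Loxl2 and Loxl3, which crosslink collagen and elastin, also fell with no overlap. Loxl2 went from a control median of 12.4 CPM (11.3 to 16.4) to 6.46 CPM (5.41 to 9.00), a 1.88-fold fall (log2 change -0.91 ± 0.096 SE, edgeR adjusted p = 8.7e-09). Loxl1 went from 18.8 CPM (15.8 to 22.3) to 11.1 CPM (9.16 to 13.0), a 1.68-fold fall (log2 change -0.75 ± 0.073 SE, edgeR adjusted p = 2.42e-09).

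Loxl3 fell less, from 5.89 CPM (5.10 to 9.03) to 4.13 CPM (3.17 to 4.99; log2 change -0.58 ± 0.092 SE, edgeR adjusted p = 1.32e-05). Its value is uncertain, because its exons share 535 bases with Htra2 on the opposite strand and no source used here says whether reads were counted by strand. Loxl4, the least abundant of the family at 1.89 CPM in controls, fell 1.42-fold (edgeR adjusted p = 0.0192) and did not pass with library size alone (edgeR adjusted p = 0.0712).

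Lox itself, the founding lysyl oxidase, did not pass over all libraries (log2 change -0.19 ± 0.29 SE, edgeR adjusted p = 0.602), and its exposed libraries were the most spread of any member, with a coefficient of variation of 64.4% against 28.3% in controls. Exposed replicates 1 and 4 held 44.2 and 40.6 CPM, above the highest control at 37.0. Exposed replicates 2 and 3 each held 21.3 CPM, and replicates 5 to 10 held 8.40 to 18.3, of which 5 lay below the lowest control at 14.3. Without exposed replicates 1 to 4, Lox was 1.91-fold lower (log2 change -0.93, edgeR adjusted p = 0.00179). The summed myelin markers stood at 1267 and 1549 CPM in exposed replicates 1 and 4 and at 537 and 540 CPM in replicates 2 and 3.

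**Figure D3:**
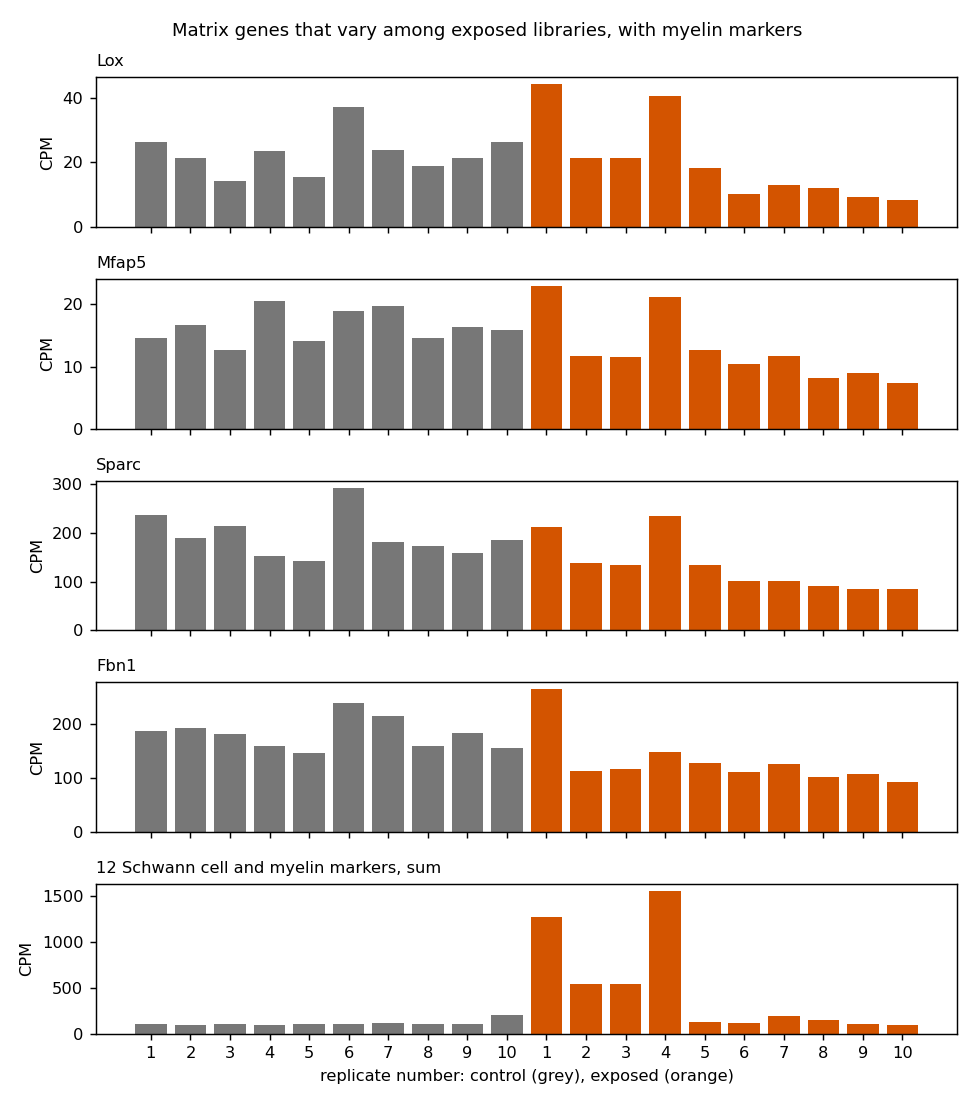
CPM in each of the 20 libraries (grey bars, control; orange bars, exposed) for Lox, Mfap5, Sparc and Fbn1, with the summed CPM of 12 Schwann cell and myelin markers below. Exposed replicate 1 is high in all 4 genes and replicate 4 in Lox, Mfap5 and Sparc, and these 2 libraries hold the highest marker sums, 1267 and 1549 CPM.

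Genes of the elastic fibre were mostly lower, with 5 of 8 called lower and 1 higher. Mfap4, a microfibril-associated glycoprotein, ran from 5.06 to 11.8 CPM in controls (median 6.76) and from 1.25 to 3.88 CPM in exposed muscles (median 2.45). It fell 2.88-fold with no overlap (log2 change -1.52 ± 0.19 SE, edgeR adjusted p = 1.98e-07), although its exons share 89 bases with Mapk7 on the opposite strand. Elastin, Eln, ran from 33.9 to 67.4 CPM in controls (median 48.1) and from 23.6 to 33.2 CPM in exposed muscles (median 27.2), a 1.77-fold fall (log2 change -0.82 ± 0.10 SE, edgeR adjusted p = 3.94e-07).

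The latent TGF-beta binding proteins, which hold TGF-beta inactive in the matrix along fibrillin, went in opposite directions. Ltbp4 ran from 135.9 to 159.6 CPM in controls (median 144.7) and from 75.4 to 99.4 CPM in exposed muscles (median 84.7). This 1.71-fold fall had the smallest adjusted p of any member (log2 change -0.77 ± 0.041 SE, edgeR adjusted p = 3.25e-13). Ltbp1 rose 1.22-fold, from a control median of 25.2 CPM (23.2 to 28.8) to 30.7 CPM (27.9 to 34.6), with overlapping ranges (log2 change 0.29 ± 0.046 SE, edgeR adjusted p = 1.23e-05). Both changes were seen in all 10 exposed libraries, relative to the control mean.

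Emilin1, a glycoprotein between elastin and microfibrils, fell 1.47-fold (edgeR adjusted p = 2.15e-05). Fibrillin-1, Fbn1, fell 1.38-fold (edgeR adjusted p = 0.0148), and the call was lost with library size alone (edgeR adjusted p = 0.0968). Without exposed replicates 1 to 4 the log2 change was -0.70 (edgeR adjusted p = 1.96e-05). Exposed replicate 1 held 264.6 CPM of Fbn1, above every control, while the other 9 held 93.2 to 148.7. Fbn1 shares 2442 exon bases with Gm9913 on the opposite strand, which held 113 counts over all libraries against 100022. Mfap5 did not pass over all libraries (log2 change -0.36 ± 0.18 SE, edgeR adjusted p = 0.0956). It was highest in exposed replicates 1 and 4, at 22.9 and 21.1 CPM, and was 1.65-fold lower without exposed replicates 1 to 4 (log2 change -0.72, edgeR adjusted p = 7.64e-05). It passed as well without exposed replicate 1 (edgeR adjusted p = 0.0102), without exposed replicate 4 (0.022), with voom quality weights (limma adjusted p = 0.00625) and in the fit with a replicate block (edgeR adjusted p = 0.0356). Mfap2, near 1.2 CPM in both groups, had a log2 fold change of 0.04 ± 0.23 SE.

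Among the proteases and their inhibitors, the membrane-anchored collagenase rose and the TIMPs moved apart. Mmp14, also called MT1-MMP, cuts fibrillar collagen at the cell surface and activates Mmp2. It ran from 10.1 to 14.1 CPM in controls (median 12.2) and from 16.0 to 24.0 CPM in exposed muscles (median 18.6). It was the only member whose exposed range lay wholly above the controls (6.48% of all tested genes), and rose 1.60-fold (log2 change 0.68 ± 0.071 SE, edgeR adjusted p = 9.35e-09). Mmp2, the gelatinase that Mmp14 activates together with Timp2, stood at 40.5 ± 6.73 and 41.8 ± 6.50 CPM (SD, n = 10 each) and did not pass (log2 change 0.05 ± 0.094 SE, edgeR adjusted p = 0.685).

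Timp1, an inducible inhibitor, was scarce and fell 5.75-fold with no overlap (log2 change -2.52 ± 0.27 SE, edgeR adjusted p = 5.75e-08). It ran from 0.406 to 1.46 CPM in controls (median 0.930) and from 0.042 to 0.339 CPM in exposed muscles (median 0.184). These levels rest on 316 counts over the 10 controls and 54 over the 10 exposed libraries. It was not tested under the filter of 1 CPM in 10 libraries.

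Timp2 and Timp3, which are more abundant, rose. Timp2 went from a control median of 60.6 CPM (55.2 to 83.5) to 79.0 CPM (63.9 to 113.0), a 1.32-fold rise (log2 change 0.41 ± 0.11 SE, edgeR adjusted p = 0.00189). It rose by 0.27 on the log2 scale without exposed replicates 1 to 4 (edgeR adjusted p = 0.0218). Timp3, which binds the matrix, went from 151.5 CPM (117.0 to 185.6) to 190.8 CPM (169.3 to 263.4), a 1.31-fold rise (log2 change 0.38 ± 0.080 SE, edgeR adjusted p = 0.000118). Both ranges overlapped the controls. Timp4 did not pass (log2 change -0.27 ± 0.23 SE, edgeR adjusted p = 0.279), and exposed replicates 1 and 10 held 16.9 and 20.7 CPM against 38.0 to 62.5 in the other 8. Timp1, Timp3 and Timp4 lie inside the synapsin genes Syn1, Syn3 and Syn2 on the opposite strand, which held 77, 478 and 1841 counts over all libraries against 370, 109429 and 30190 for the TIMP genes. Timp3 shares 1733 exon bases with Syn3, Timp4 shares 90 with Syn2, and Timp1 shares 0 with Syn1.

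The 8 laminins and nidogens had log2 changes between -0.32 and 0.32, and none had separate ranges. Lama2, the chain of the fibre's main laminin (merosin), ran from 134.3 to 178.9 CPM in controls (median 152.5) and from 112.0 to 135.9 CPM in exposed muscles (median 118.1). It fell 1.25-fold (log2 change -0.32 ± 0.049 SE, edgeR adjusted p = 4.23e-06). Lama5, a chain of vessels and of the nerve-muscle junction, went from 52.3 CPM (43.6 to 59.8) to 63.6 CPM (57.9 to 77.4), a 1.24-fold rise (log2 change 0.32 ± 0.058 SE, edgeR adjusted p = 3.02e-05). Lama4, found in vessels and nerve, had a log2 fold change of -0.04 ± 0.11 SE, and of -0.21 without exposed replicates 1 to 4 (edgeR adjusted p = 0.0749), neither of which passed.

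The beta and gamma chains passed the test weakly or not at all. Lamb2, the beta chain of the junction, had a log2 fold change of 0.04 ± 0.033 SE, and passed as higher with upper-quartile factors (edgeR adjusted p = 0.0257) or library size alone (0.0403). Lamc1, the gamma chain shared by most laminins, had -0.09 ± 0.035 SE (edgeR adjusted p = 0.0543). It passed as lower without exposed replicates 1 to 4 (edgeR adjusted p = 0.0278), with voom quality weights (limma adjusted p = 0.0132), or without control replicate 5 or 10 or exposed replicate 1, 4 or 7. Lamb1 went from 36.8 CPM (28.2 to 39.6) to 26.6 CPM (19.7 to 40.7; log2 change -0.31 ± 0.13 SE, edgeR adjusted p = 0.043). Its exposed libraries 1 and 4, at 40.7 and 40.1 CPM, lay above all controls, and without exposed replicates 1 to 4 the log2 fold change was -0.60 (edgeR adjusted p = 3.58e-06). The call over all libraries was lost without any of 12 single libraries (control replicates 1, 2, 3, 6, 7 and 10 and exposed replicates 5 to 10), with edgeR adjusted p up to 0.0758. It was also lost with upper-quartile factors (edgeR adjusted p = 0.107), library size alone (0.254), no count filter (0.103) and a filter of 1 CPM in 10 libraries (0.0569).

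The nidogens link laminin to collagen IV. Nid1 stood at a median of 118.5 CPM in controls and 105.6 CPM in exposed muscles and did not pass (edgeR adjusted p = 0.116), except without exposed replicate 4 (edgeR adjusted p = 0.0227), without exposed replicates 1 to 4 (0.0354) or with voom quality weights (limma adjusted p = 0.0418). Nid2 went from 11.5 CPM (10.00 to 15.1) to 13.5 CPM (12.0 to 16.5), a 1.14-fold rise (log2 change 0.19 ± 0.080 SE, edgeR adjusted p = 0.0408). That call was lost without exposed replicates 1 to 4 (edgeR adjusted p = 0.334), with voom quality weights (limma adjusted p = 0.0536), and without any of 12 single libraries (control replicates 2, 4, 5, 7, 8, 9 and 10 and exposed replicates 1, 2, 3, 4 and 10). Nid2 shares 437 exon bases with Rtraf on the opposite strand, which held 35736 counts against 8063, so its value is uncertain.

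Related members were also compared within each library as the log2 ratio of their counts, which does not depend on how libraries are scaled. For 12 pairs the ratios of the groups were compared by a 2-sided permutation test with 100000 resamples, with p-values adjusted over the 12 pairs. The pairs were chosen with earlier results of these data known, and each ratio combines changes of members given above. These p-values are therefore no independent support for those changes. In 4 pairs the groups did not overlap, each with an unadjusted permutation p of 2e-05, the smallest this test can give, and an adjusted p of 6e-05. Bgn over Dcn went from -1.17 ± 0.18 in controls to -2.93 ± 0.33 in exposed muscles (SD, n = 10 each), a 3.38-fold shift towards decorin. Lum over Dcn went from -3.48 ± 0.11 to -4.63 ± 0.23, a 2.22-fold shift. Ltbp1 over Ltbp4 went from -2.52 ± 0.097 to -1.46 ± 0.17, a 2.08-fold shift towards Ltbp1.

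Lama2 over Lama5 went from 1.54 ± 0.22 to 0.90 ± 0.19, a 1.56-fold shift from the fibre chain towards the vessel and junction chain. Smaller shifts with overlapping ranges passed in 5 pairs. Mmp14 over Timp2 rose by 0.28 ± 0.058 SE on the log2 scale (permutation test, adjusted p = 0.000384), Mmp2 over Timp2 fell by 0.34 ± 0.074 SE (permutation test, adjusted p = 0.000549) and Nid1 over Nid2 fell by 0.35 ± 0.072 SE (permutation test, adjusted p = 0.00052). Lamb2 over Lamb1 rose by 0.39 ± 0.14 SE and Lama2 over Lama4 fell by 0.28 ± 0.10 SE (permutation test, adjusted p = 0.0187 each). Without exposed replicates 1 to 4 the last of these did not pass (exact permutation test, adjusted p = 0.269). Eln over Fbn1 (permutation test, adjusted p = 0.152), Lox over Loxl1 (0.20) and Thbs1 over Thbs2 (0.313) did not pass.

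**Figure D4:**
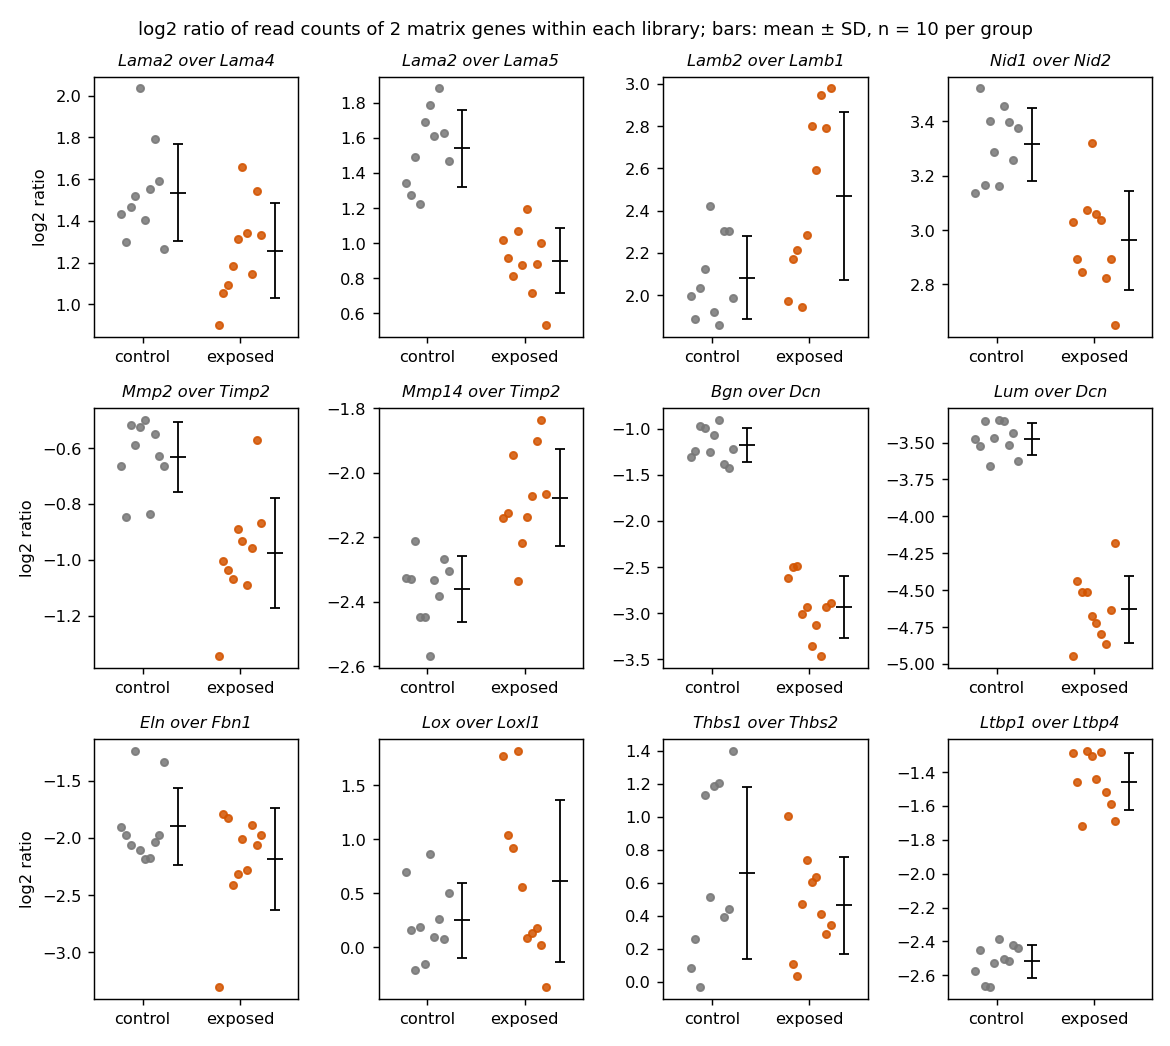
Log2 ratio of read counts within each library for 12 pairs of members (grey points, control; orange points, exposed; bars, mean ± SD, n = 10 per group; axes do not start at 0). The groups are separate for Bgn over Dcn, Lum over Dcn, Ltbp1 over Ltbp4 and Lama2 over Lama5, and overlap in the other 8 pairs.

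Exposed libraries differed among themselves in how far they lay from the controls. Each exposed library held 16 to 30 of the 43 members below the lowest control and 2 to 15 above the highest. Exposed replicate 8 had the most members below (30) and replicates 1 and 4 the most above (15 each). The median coefficient of variation over members was 15.3% in controls and 17.8% in exposed muscles, and after Lox it was highest in exposed muscles for Timp1 (55.6%), Mfap2 (46.1%), Mfap5 (41.5%), Sparc (39.9%) and Fbn1 (37.5%).

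**Figure D5:**
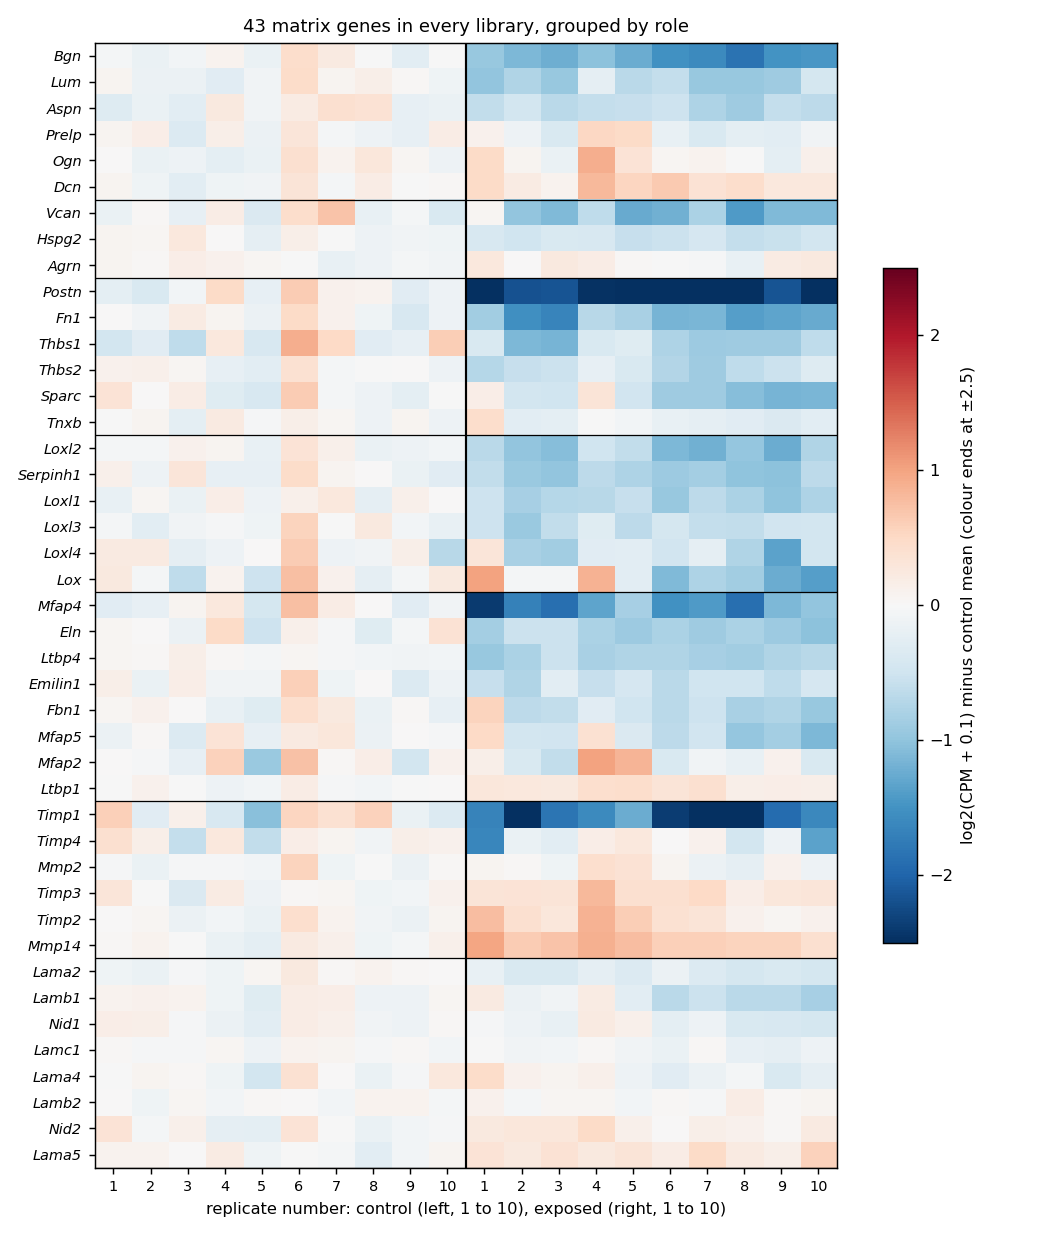
Level of each member in each library as log2(CPM + 0.1) minus the control mean (blue, lower; red, higher; controls left of the line, exposed right), with members grouped by role. Postn, Timp1, Mfap4 and Bgn are blue in all 10 exposed libraries and Mmp14 is red in all 10, while Lox, Mfap5 and Sparc are red in exposed replicates 1 and 4.

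Levels between genes were compared per length, as CPM per kilobase of annotated exons. Sparc was highest in controls at 50.7 CPM per kilobase, followed by Dcn at 36.7, Hspg2 at 33.6 and Lamb2 at 24.4. In exposed muscles Dcn was highest at 49.0, followed by Sparc at 34.7, Lamb2 at 25.1 and Timp3 at 24.4. The length used for Timp3, 8144 bases, includes the 1733 bases shared with Syn3. The order changed most for Postn, which went from rank 25 of 43 to rank 39 (5.95 to 0.961 CPM per kilobase), and Fn1 went from rank 8 to rank 17 (18.6 to 8.26). Within families, Timp3 and Timp2 stood above Timp4 and Timp1 in both groups, and Loxl1 and Lox above the other lysyl oxidases.

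Other genes of the matrix give the setting. Over all tested genes 57.6% were called, 28.9% lower and 28.7% higher. Collagen chains (84.6% called) and collagen processing genes (85.7%) stood above that share. Other elastic fibre genes (53.8%) and other matricellular genes (50%) stood below it, with lower calls at 46.2% and 44.4%. Collagen chains had 19 of 26 tested genes lower and 3 higher (median log2 change -0.63), with Col8a1 3.15-fold, Col15a1 2.22-fold and Col6a2 1.96-fold lower and Col7a1, the anchoring fibril collagen, 3.89-fold higher. Of 21 genes of collagen processing, 16 were lower and 2 higher (median -0.38), led by the prolyl hydroxylase P3h2 (5.39-fold lower), with Plod3, Tgm2 and P4hb lower by 1.55, 1.53 and 1.30-fold. Of 13 other elastic fibre genes, 6 were lower and 1 higher (median -0.18), and Ltbp2 was 6.82-fold, Fbn2 2.51-fold, Fbln2 1.26-fold and Ltbp3 1.23-fold lower. Of 18 other matricellular genes, 8 were lower and 1 higher (median -0.21), among them tenascin-C, Tnc (3.22-fold), Comp (2.09-fold), Thbs4 (1.79-fold) and Sparcl1 (1.21-fold), all lower.

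Other proteoglycans had 8 of 18 lower and 2 higher (median -0.25), with Sdc4 1.90-fold and Cspg4 1.52-fold lower and Kera (above) and Gpc4 (log2 change -0.26) also lower. Other basement membrane genes had 6 of 13 lower and 2 higher (median -0.34), with Papln 5.08-fold and Lamb3 2.07-fold lower and Egflam, which encodes pikachurin, 1.38-fold higher. Of 27 other matrix proteases and inhibitors, 10 were lower and 4 higher (median -0.13). Adamts8 was 6.96-fold lower and Adamtsl2 2.89-fold lower, and the neutrophil collagenase Mmp8 rose 18.2-fold from 0.0427 to 0.828 CPM. Called in either direction were 55.6% of these proteoglycans, 61.5% of the basement membrane genes and 51.9% of the proteases and inhibitors. Lower calls made up 44.4%, 46.2% and 37.0%. Over all tested genes 57.6% were called and 28.9% were lower.

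Among 15 TGF-beta ligands, receptors and early targets, 6 were lower and 4 higher (median -0.12). The receptors Tgfbr3 and Tgfbr1 were higher, with log2 changes of 0.73 and 0.58, and the co-receptor Eng and the ligand Tgfb3 were 1.85-fold and 1.47-fold lower. Of 26 matrix receptors, 11 were lower and 3 higher (median 0.01), with Itga9 1.89-fold, Itgav 1.74-fold, the laminin receptor Bcam 1.71-fold and Itgb1 1.37-fold lower. The TGF-beta list had 66.7% of its genes called (40% lower) and the receptors 53.8% (42.3% lower). Over all tested genes the shares were 57.6% and 28.9%. All genes named in these lists had an edgeR adjusted p of 6.47e-05 or less.

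Markers of cells that make matrix did not all move alike. Over all tested genes 57.6% were called, and of the tendon markers 90.9%. The shares were 41.7% for fibroblasts and 45.5% each for endothelium and for pericytes and smooth muscle, below that of all genes. Of 11 tendon markers, among them Kera, Comp and Thbs4 of the lists above, 10 were lower and none higher, and their sum ran from 257 to 598 CPM in controls and from 149 to 255 CPM in exposed muscles, with no overlap. Of 12 fibroblast markers, 3 were lower (Ly6a, Cd248 and Cxcl14) and 2 higher (Pdgfra and Gsn), and their sum, most of it Gsn, ran from 528 to 774 CPM and from 713 to 1172 CPM. Of 11 markers each of endothelium and of pericytes and smooth muscle, 4 and 3 were lower and 1 and 2 higher. Their sums ran from 624 to 768 and 1159 to 1274 CPM in controls and from 553 to 656 and 1107 to 1261 CPM in exposed muscles.

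Of the 10 tested macrophage markers 2 were higher and none lower (sums of 42.4 to 82.2 and 56.3 to 101.6 CPM), and all 12 Schwann cell and myelin markers were higher (sums of 99.7 to 201.2 and 99.5 to 1549 CPM). The Schwann cell sum was 537 to 1549 CPM in exposed replicates 1 to 4. In exposed replicates 5 to 10 it was 99.5 to 193.0 CPM, near the control range. The top of that range was control replicate 10, and the other controls held 99.7 to 112.4 CPM. Exposed replicates 5 to 8, at 118.6 to 193.0 CPM, lay above all controls but that one. Of 4 tested perineurial markers 2 were higher (sums of 34.1 to 44.1 and 34.6 to 105.5 CPM). Exposed replicates 1 and 4 held the highest sums of macrophage markers (101.6 and 101.3 CPM) and of perineurial markers (105.5 and 94.8 CPM). They also held the lowest sums of 10 muscle fibre markers (200733 and 217472 CPM), and replicate 4 held the highest fibroblast sum (1172 CPM). Of 6 satellite cell markers 3 were higher, and of 7 adipocyte markers 1, Car3, was lower, which muscle fibres also express. The other 6 adipocyte markers did not pass and had log2 changes from -0.27 to 0.94, with a median of 0.66 over all 7. The sum of all 7, nearly all of it Car3, ran from 2067 to 3081 CPM in controls and from 922 to 1622 CPM in exposed muscles. Of 6 cartilage and bone markers 2 passed the count filter and both, Sox9 and Col2a1, were lower, and no marker of any of these lists was at 0 in all libraries. Of the tested markers, 20% were called for macrophages, 50% each for perineurium and satellite cells and 14.3% for adipocytes, against 57.6% of all tested genes. The part of any cell type in the changes of the matrix genes was not tested.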

How the data were processed

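RNA of 20 soleus samples was measured from 90 ng of total RNA after depletion of ribosomal RNA, per the labels' protocols. The authors deposited whole-number read counts for Ensembl genes, not normalized. Per the submitters' processing notes the tools were MultiQC 1.15, Subread, featureCounts 1.5.1 and edgeR, and the build GRCm39. Strand setting and treatment of shared reads were not found in these sources. Columns were matched to samples by the library codes in the labels. Nothing says more of the replicates than 10 mice per group, so p-values reflect only how far these samples differ from each other. No 2 columns were identical.

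The counts were tested with edgeR 4.0.16 under R 4.3.3, using filterByExpr (minimum count 10, minimum total 15), TMM scaling, robust quasi-likelihood fits without covariates and Benjamini-Hochberg adjustment over 16778 genes. Each SE is computed from the spread of log2 CPM (prior count 2) within both groups. Names matched for 51948 of 56941 rows; exon lengths, overlaps and neighbours came from GENCODE M21 on GRCm38. Pair ratios used a prior count of 0.5 and scipy 1.17.1. On simulated data with 200 of 16778 genes changed, the test recovered 38% of 1.25-fold and 92% of 2-fold changes, with 8 false among 155 calls. In the real data 57.6% of genes were called, so these rates do not carry over to the calls reported here.

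Values in full are given for up to 4 members of each role with the smallest p and the 3 members with the highest mean CPM; members named beyond these were chosen after their values were seen. Up to 4 called genes per wider list were named by smallest p, and some of these genes are not reported here. Members, roles, lists and pairs were chosen with earlier results of these data known. Alternatives were other scalings, DESeq2 1.42.0, limma-voom 3.58.1, other filters and thresholds, a replicate block, and each library left out.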

Additional observations from a re-analysis of the deposited data

Results flagged for a closer look

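The highest and lowest library of each group was checked for each member on the scale of log2(CPM + 0.1), and flagged where its gap to the nearest library was over 0.466 of the group's range. Of 86 groups checked, 6 were flagged, and chance flags about 1 in 20. Exposed replicate 1 was far above the other exposed libraries in Vcan (25.3 CPM, next 15.7), Tnxb (296.1 CPM, next 216.4) and Fbn1 (264.6 CPM, next 148.7). Exposed replicate 4 was far above in Timp3 (263.4 CPM, next 213.1). Control replicate 6 was far above the other controls in Mmp2 (59.1 CPM, next 41.1) and Timp2 (83.5 CPM, next 66.1).

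Leaving out exposed replicate 1 changed the call of Tnxb, which then passed as lower (edgeR adjusted p = 0.00214, against 0.174 over all libraries). Leaving out the flagged library changed no call of Vcan, Fbn1, Timp3, Mmp2 or Timp2. Flagged libraries were picked from these same values, so fits without them are descriptions.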

How the results depend on the processing

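Of the 30 members called, 20 kept their direction and call under all 12 other settings and with each of the 20 libraries left out, and none changed direction (Timp1 was not tested at 1 CPM in 10 libraries). Outside the 2 stricter thresholds, the calls lost were those of Sparc, Loxl4, Fbn1, Lamb1 and Nid2. Against a fold of 1.2, 20 members were called, 18 lower and 2 higher (Dcn and Mmp14), and over all genes 4864 were called, 2380 higher and 2484 lower, against 9663, 4813 and 4850. At an adjusted p under 0.01, 25 members were called, 19 lower and 6 higher, and 7784 genes, 3682 higher and 4102 lower. With a library left out, 28 to 32 members were called, 22 to 26 lower and 6 to 8 higher, and 9398 to 9643 genes, 4631 to 4811 higher and 4750 to 4868 lower.

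Members that had not passed changed sign without passing: Prelp to 0.024 with upper-quartile factors and 0.051 with library size alone, Lama4 to 0.019 and 0.049 under the same, and Mfap2 to -0.047 with voom quality weights, -0.011 with the replicate block and -0.00164 without exposed replicates 1 to 4. With a library left out, Prelp ran from -0.11 to 0.000985, Lama4 from -0.11 to 0.00388, Mfap2 from -0.12 to 0.15 and Mmp2 from -0.00249 to 0.12. Of the pair ratios, Lama2 over Lama4 (-0.15, adjusted p = 0.269) lost its call and Lox over Loxl1 changed sign without passing (0.37 to -0.15) without exposed replicates 1 to 4 (exact permutation test). The cause of these changes was not tested.

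Sample numbers are shared between groups, but samples with the same number did not deviate together (correlations of -0.132 to 0.0982 over 10 pairs, none over 0.1, and 0 samples correlated best with their own number). With the number as a replicate block 31 members were called, 24 lower and 7 higher, of 9470 genes called (4654 higher, 4816 lower), and Mfap5 was gained. In the block, sign-flip tests of the pair ratios changed no call. Depth limits Timp1, Loxl4 and Mfap2, which stood below 2 CPM.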
